A study of Mus musculus with 6 samples.

Results

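The genes described here are those of the mouse mitochondrial genome, taken as every gene of the deposited FPKM table whose GENCODE M21 symbol starts with mt-. The annotation holds 37 such genes, of which 13 encode proteins, 2 encode ribosomal RNAs and 22 encode transfer RNAs. The table has a row for 16 of them among 27151 genes: all 13 mRNAs, both rRNAs and 1 tRNA, mt-Tp. The other 21 tRNA genes (mt-Tf, mt-Tv, mt-Tl1, mt-Ti, mt-Tq, mt-Tm, mt-Tw, mt-Ta, mt-Tn, mt-Tc, mt-Ty, mt-Ts1, mt-Td, mt-Tk, mt-Tg, mt-Tr, mt-Th, mt-Ts2, mt-Tl2, mt-Te and mt-Tt) were not analysed here.

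RNA was sequenced from granulosa cells of the mouse ovary, the somatic cells that line the follicle, nourish the oocyte and produce steroids. They were freed by puncturing follicles in M2 medium with Milrinone and grown for 24 h in DMEM/F12 with FBS and penicillin. They were then kept without serum for 12 h and for a further 24 h without (control, 3 libraries) or with GSK4112 (3 libraries), with a medium change every 12 h. The compound GSK4112 activates NR1D1 (also called REV-ERBα), a heme-binding repressor of the circadian clock. The design text speaks of treatment in vivo, whereas the protocol describes cells in culture. Strain and age of the mice, and any solvent given to the controls, are not stated in the labels. Nothing in the labels ties the libraries to separate animals or dishes, so the spread behind each p-value is that of these samples and may be technical.

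The mitochondrial genome is a small circle transcribed from both strands into long precursors that span many genes. In most places a tRNA separates neighbouring genes, and cutting the tRNAs out of the precursor frees the mRNAs and rRNAs, which then reach different levels through their stability. The mRNAs encode core subunits of respiratory complexes I, III and IV and of ATP synthase (complex V), and the rRNAs and tRNAs serve the ribosome that translates them inside the organelle. Granulosa cells also use mitochondria to make steroids, since the side-chain cleavage of cholesterol takes place there. Stretches of the mitochondrial genome have been copied into nuclear chromosomes during evolution, and reads from such copies and from the organelle can be confused.

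Depth, read from the smallest steps of FPKM, was 16559256 to 18158273 fragments. Fragments recovered over all genes summed to more than the depth in every library, such as 19203352 against 18158273 in control replicate 1. Each library had 12012 to 12290 genes at an FPKM of 1 or more. Both replicate 1 libraries were the lowest on the first principal component (-38.59 for control and -13.38 for GSK4112). Control replicates 2 and 3 were at 1.05 and 2.29, and GSK4112 replicates 2 and 3 at 26.56 and 22.07. Each GSK4112 library was thus above the same-numbered control. All 13 granulosa markers tested lay below control (median log2 change -0.44), beside 39.1% of all genes tested. Of the 13, 2 fell (Fst and Hsd17b1), beside 0.624% of all genes tested, and 4 fell with the replicate number as a block (also Inhba and Serpine2), beside 3.82%. Their summed FPKM was 4331 to 6880 in control and 3611 to 5874 in GSK4112 libraries, and the part of this in the results below was not tested. Of 14 oocyte markers 13 were measured, each with a mean FPKM under 1, and their sum was 0.671 to 5.01 and 1.32 to 2.76. Summed markers of theca and stroma (70.1 to 283 and 95.6 to 182), immune cells (7.85 to 42.1 and 17.2 to 39.5) and surface epithelium (2.92 to 8.84 and 2.65 to 8.95) overlapped between the groups. So did those of endothelium (0.586 to 1.05 and 0.546 to 0.962) and erythroid cells (0.0986 to 0.336 and 0.0246 to 0.377). Fewer cells of a type and less RNA per cell cannot be told apart in such bulk samples.

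The mitochondrial genes held 3.28%, 3.61% and 3.76% of the depth in the control libraries and 3.17%, 3.52% and 3.32% in the GSK4112 libraries, so the groups overlapped. Because FPKM divides by length, their share of the summed FPKM was higher, at 8.63%, 9.26% and 10.2% against 8.35%, 9.36% and 8.53%. Mean FPKM of the 15 genes above the filter ranged from 2.60 (mt-Nd3 in GSK4112 libraries) to 11887 (mt-Co1 in GSK4112 libraries). The plot of FPKM in genome order shows the level of each gene in each library.

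**Figure D1:**
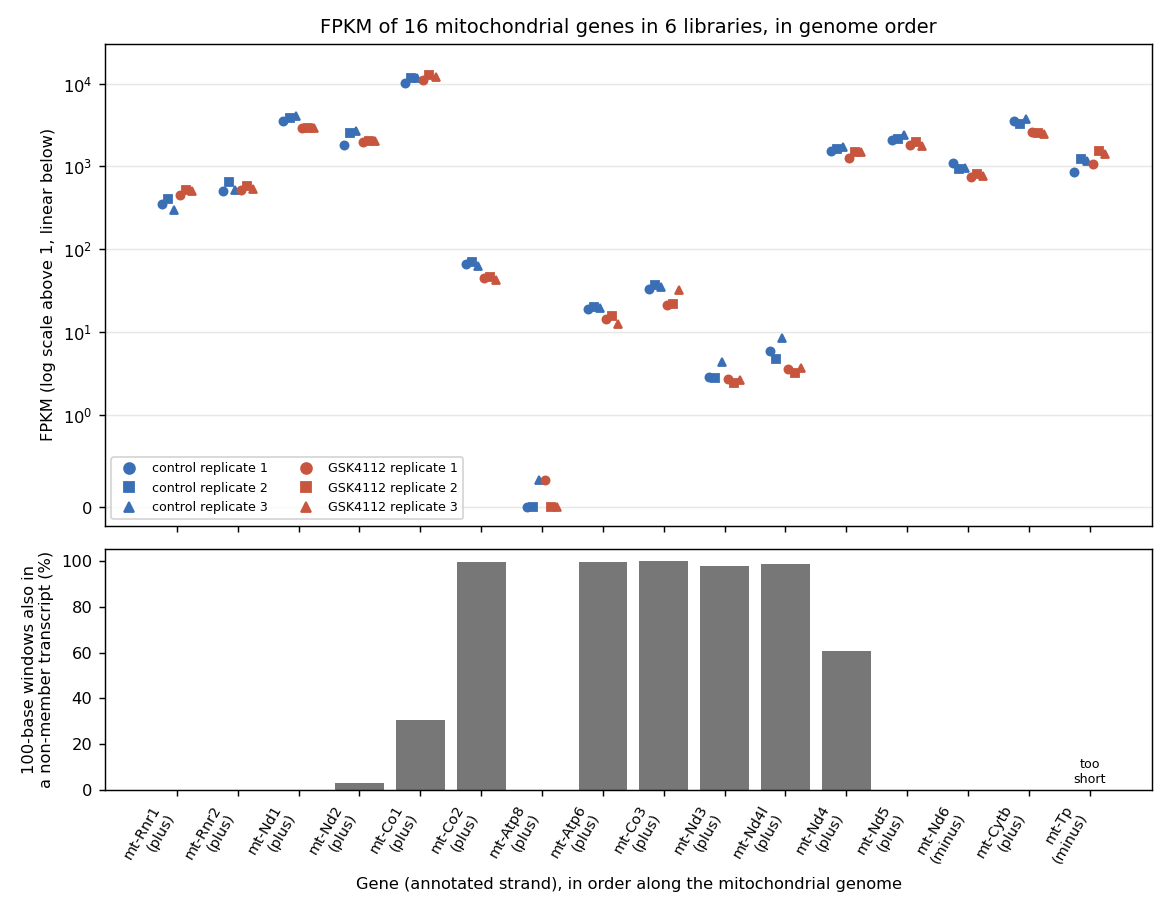
Upper panel: FPKM (log scale above 1, linear below) of the 16 mitochondrial genes of the table in genome order, 1 point per library, for 3 control and 3 GSK4112 libraries. Lower panel: percent of each gene's 100-base windows that also occur, letter for letter, in an annotated transcript outside the mitochondrial genome; the low levels from mt-Co2 to mt-Nd4l sit where this share is 97.6% to 99.9%, apart from mt-Atp8 at 0%.

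By mean FPKM the order of the genes was the same in both groups: mt-Co1, mt-Nd1, mt-Cytb, mt-Nd2, mt-Nd5, mt-Nd4, mt-Tp, mt-Nd6, mt-Rnr2, mt-Rnr1, mt-Co2, mt-Co3, mt-Atp6, mt-Nd4l, mt-Nd3 and mt-Atp8. Among control libraries the neighbours mt-Nd1 and mt-Cytb, mt-Nd2 and mt-Nd5, and mt-Tp and mt-Nd6 overlapped in level, and other neighbours did not. The abundant genes and the scarce genes were grouped along the genome. From mt-Co2 to mt-Nd4l, 6 mRNA genes in a row on the plus strand had an FPKM of at most 70.2 in every library. On either side of them, mt-Co1 was at 10207 or more and mt-Nd4 at 1279.9 or more in every library.

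That row of scarce genes is also the stretch with near-identical copies in the nucleus. On chromosome 1 (GRCm38, 24611535 to 24616197, minus strand) GENCODE M21 annotates 7 unprocessed pseudogenes that match, in the same order, the end of mt-Co1, then mt-Co2, mt-Atp6, mt-Co3, mt-Nd3, mt-Nd4l and the start of mt-Nd4. The match was 100% over 681 bases for Gm28661 and mt-Co2, over 678 bases for Gm10925 and mt-Atp6, and over 783 bases for Gm28437 and mt-Co3. It was also 100% over 294 bases for Gm10222 and mt-Nd4l and over 876 bases for Gm28439 and mt-Nd4. Gm29216 matched 483 bases of mt-Co1 at 99.8%, with 1 substitution (A1066T, counted from 1 at the 5′ end of mt-Co1, member base first). Gm28438 matched 345 bases of mt-Nd3 at 99.7%, also with 1 substitution (T3C).

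Sequences from the GENCODE M21 transcripts show how little separates a member from its copy. They are written 5′ to 3′ on the coding strand with GRCm38 coordinates. The first is the whole of mt-Nd4l (chrM:9877-10173, plus strand), a complex I subunit gene, in which capitals mark the only bases that lie past the end of its copy Gm10222.
mt-Nd4l: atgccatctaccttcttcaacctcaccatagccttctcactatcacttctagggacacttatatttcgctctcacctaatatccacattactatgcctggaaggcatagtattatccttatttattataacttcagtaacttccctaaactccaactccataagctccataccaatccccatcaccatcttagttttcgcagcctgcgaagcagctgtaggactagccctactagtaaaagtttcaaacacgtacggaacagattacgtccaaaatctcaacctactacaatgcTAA
The second is bases 817 to 936 of mt-Nd4 (chrM:10983-11102, plus strand), where capitals start after the last base shared with Gm28439, beyond which reads can be told from that copy.
mt-Nd4: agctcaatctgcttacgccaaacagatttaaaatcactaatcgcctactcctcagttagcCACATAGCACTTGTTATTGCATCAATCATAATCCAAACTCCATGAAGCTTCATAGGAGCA
The first 43 bases of mt-Nd3 (chrM:9459-9501, plus strand) and of Gm28438 (chr1:24613077-24613119, minus strand) hold the only base that differs between them, in a capital.
mt-Nd3: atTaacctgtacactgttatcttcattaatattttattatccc
Gm28438: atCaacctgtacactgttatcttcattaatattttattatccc
By contrast, mt-Co1 and its full-length match Gm13340 on chromosome 2 (97.6% over 1545 bases, 37 mismatches) differ throughout. Bases 501 to 650 of mt-Co1 (chrM:5828-5977, plus strand) are set against Gm13340 (chr2:22588998-22589147, minus strand), with the 5 bases that differ in capitals.
mt-Co1: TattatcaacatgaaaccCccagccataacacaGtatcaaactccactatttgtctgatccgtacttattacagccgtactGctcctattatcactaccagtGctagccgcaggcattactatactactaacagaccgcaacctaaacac
Gm13340: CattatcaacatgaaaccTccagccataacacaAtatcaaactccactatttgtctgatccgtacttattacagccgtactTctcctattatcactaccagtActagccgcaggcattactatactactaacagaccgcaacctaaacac
For mt-Cytb the best annotated match, Gm11410 on chromosome 4, was at 92.9% over 1142 bases (81 mismatches). Bases 501 to 650 (chrM:14645-14794, plus strand, and chr4:80004489-80004638, plus strand) differ at the 12 bases in capitals.
mt-Cytb: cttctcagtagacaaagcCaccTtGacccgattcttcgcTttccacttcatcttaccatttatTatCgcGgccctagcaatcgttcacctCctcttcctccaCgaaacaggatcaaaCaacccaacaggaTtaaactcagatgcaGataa
Gm11410: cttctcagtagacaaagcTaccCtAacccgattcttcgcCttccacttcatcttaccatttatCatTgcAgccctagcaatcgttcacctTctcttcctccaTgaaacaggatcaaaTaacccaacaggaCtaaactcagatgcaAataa

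Exact windows were also counted for each gene. Of the 100-base windows of mt-Co2, 582 of 585 (99.5%) occurred letter for letter in another annotated transcript, as did 579 of 582 for mt-Atp6 and 684 of 685 for mt-Co3. The counts were 243 of 249 for mt-Nd3, 195 of 198 for mt-Nd4l, 777 of 1279 for mt-Nd4, 446 of 1446 for mt-Co1 and 30 of 939 for mt-Nd2. None of the windows of mt-Rnr1, mt-Rnr2, mt-Nd1, mt-Atp8, mt-Nd5, mt-Nd6 or mt-Cytb did, and mt-Tp is too short to hold one. How the counting treated fragments that match 2 places is not given in the sources used here. The values of mt-Co2, mt-Atp6, mt-Co3, mt-Nd3 and mt-Nd4l are therefore uncertain, and those of mt-Nd4 and mt-Co1 in part.

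GSK4112 was compared with control by limma on log2(FPKM + 1) over the 12181 genes whose mean FPKM reached 1, with p-values adjusted over all of them by the Benjamini-Hochberg method and a threshold of 0.05. This passed 15 of the 16 genes, all but mt-Atp8. Of these 15, 1 fell (mt-Co2) and 0 rose, beside 0.624% of all tested genes that fell and 0.41% that rose. At an unadjusted p under 0.05, 7 were lower and 1 was higher, beside 6.21% and 10.7% of all tested genes. With the replicate number as a block 3 fell (mt-Co2, mt-Atp6 and mt-Nd4l) and 0 rose, beside 3.82% and 3.07% of all tested genes. The pairing behind this block was taken from these same data, as no label states it, so the block calls are not separate support. Limma-voom on recovered fragments gave 1 lower and 0 higher, beside 0.789% and 0.616%.

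Without regard to the threshold, 12 of the 15 estimates lay below control, with a median log2 change of -0.25. Over all genes tested 39.1% lay below control, with a median of 0.05. For 10 of the 15 every GSK4112 library was below every control library, which held for 7.9% of all genes tested. For 1, mt-Rnr1, every GSK4112 library was above, which held for 15.7%. The groups overlapped in mt-Rnr2, mt-Nd2, mt-Co1 and mt-Tp. The plot of changes in genome order shows that the estimates above or near 0 belong to the rRNAs, mt-Co1 and mt-Tp.

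**Figure D2:**
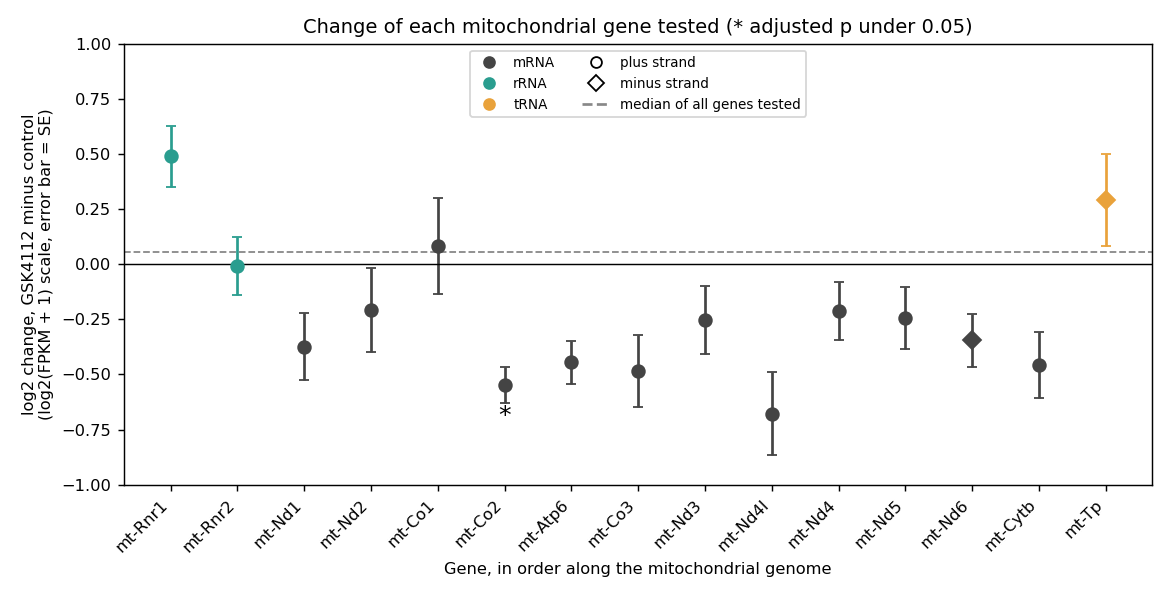
Change of each of the 15 tested mitochondrial genes (GSK4112 minus control, log2(FPKM + 1) scale), in genome order, with bars of 1 standard error of limma; colours give the RNA class and marker shapes the annotated strand. The 12 estimates below 0 run from -0.68 (mt-Nd4l) to -0.01 (mt-Rnr2), and the star marks mt-Co2, the gene with an adjusted p under 0.05.

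Complex I, NADH dehydrogenase, takes electrons from NADH and pumps protons, and 7 of its core subunits are encoded in mitochondria. Its most abundant member, mt-Nd1 (bases 2751 to 3707, plus strand), was at an FPKM of 3557, 3785 and 4042 in control replicates 1, 2 and 3 and 2936, 2911 and 2930.1 in GSK4112 replicates 1, 2 and 3. All 3 GSK4112 values were below all controls and lay close together. The log2 change was -0.37 ± 0.15 (SE), and the adjusted p in limma was 0.2798. This gene matched no annotated nuclear transcript, and 46125 fragments or more lay behind each value.

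The gene next to it, mt-Nd2 (3914 to 4951, plus strand), had an FPKM of 1793, 2563 and 2678 in control and 1953, 2029 and 2012 in GSK4112 libraries. Control replicate 1 was lower than all GSK4112 libraries, so the groups overlapped. The change was -0.21 ± 0.19 (SE, adjusted p in limma 0.6195), and -0.37 (adjusted p in limma 0.2495) with both replicate 1 libraries left out.

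For mt-Nd4 (10167 to 11544, plus strand) the FPKM was 1549.7, 1628 and 1718 in control and 1279.9, 1472 and 1477 in GSK4112 libraries. For mt-Nd5 (11742 to 13565, plus strand) it was 2095, 2119 and 2376 and then 1826, 1986 and 1753. In each gene the groups did not overlap, though control and GSK4112 libraries came near to each other. The changes were -0.21 ± 0.13 (SE, adjusted p in limma 0.4638) and -0.24 ± 0.14 (SE, 0.4296).

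The short genes mt-Nd3 (9459 to 9806) and mt-Nd4l (9877 to 10173), both on the plus strand, were far lower. FPKM of mt-Nd3 was 2.85, 2.83 and 4.32 in control and 2.72, 2.43 and 2.65 in GSK4112 libraries, from 14 to 25 fragments. FPKM of mt-Nd4l was 5.93, 4.68 and 8.50 in control and 3.59, 3.25 and 3.68 in GSK4112 libraries, from 16 to 42 fragments. In both genes the groups did not overlap, and in both control replicate 3 was the highest library. The change of mt-Nd4l was -0.68 ± 0.19 (SE), with an adjusted p in limma of 0.1475 and of 0.0393 with the replicate block. That of mt-Nd3 was -0.25 ± 0.15 (SE, adjusted p in limma 0.4602). Since mt-Nd4l and mt-Nd4 overlap by 7 bases and share a bicistronic mRNA in mammals, a fragment at their junction can be counted to either.

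The last complex I gene, mt-Nd6 (13552 to 14070), is the only mRNA gene on the minus strand. Its FPKM was 1090.3, 923 and 947 in control and 751, 805 and 769 in GSK4112 libraries, so that all GSK4112 values lay below the controls. The change was -0.34 ± 0.12 (SE, adjusted p in limma 0.2228). The sources used here do not say whether counting used strand, and reads from the plus-strand precursor that crosses this stretch could not then be told from mt-Nd6. It also overlaps mt-Nd5 by 14 bases on the opposite strand.

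Complex III passes electrons from ubiquinol to cytochrome c, and its only mitochondrial gene is mt-Cytb (14145 to 15288, plus strand), cytochrome b. FPKM was 3503, 3221 and 3698 in control and 2628, 2517 and 2442 in GSK4112 libraries. The groups were well apart, with the lowest control above the highest GSK4112 library. The change was -0.46 ± 0.15 (SE), and the adjusted p in limma was 0.2006 over all genes and 0.2269 with the replicate block.

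Complex IV, cytochrome c oxidase, reduces oxygen to water, and its 3 core subunits come from mt-Co1, mt-Co2 and mt-Co3. Their counted levels differed, though those of mt-Co2 and mt-Co3 are uncertain because of their near-identical copies. The estimates of mt-Co2 and mt-Co3 lay below 0, and that of mt-Co1 lay near 0. FPKM of mt-Co1 (5328 to 6872, plus strand), the most abundant gene of the set, was 10207, 11604 and 11815 in control and 10965, 12768 and 11929 in GSK4112 libraries. The groups overlapped, and the change was 0.09 ± 0.22 (SE, adjusted p in limma 0.8738). Quantile normalization gave 0, which is fixed by the rank of mt-Co1 and is not an estimate, as genes of equal rank get equal values.

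The gene that fell was mt-Co2 (ENSMUSG00000064354, 7013 to 7696, plus strand). Its FPKM was 65.8, 70.2 and 62.5 in control and 45.4, 46.5 and 42.7 in GSK4112 libraries, or 66.2 ± 3.88 and 44.9 ± 1.95 (SD, n = 3 each). Every GSK4112 library was below every control, and the spread within each group was small against the gap. The log2 change was -0.55 ± 0.08 (SE, adjusted p in limma 0.0423), from 508 to 829 fragments per library. Leaving out any single library ended the call (adjusted p in limma 0.058 to 0.2284), and so did testing without a filter on low values (0.0813) or without a variance trend (0.0541).

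FPKM of mt-Co3 (8607 to 9390, plus strand) was 33.5, 37.2 and 35.0 in control and 21.4, 22.0 and 32.6 in GSK4112 libraries. GSK4112 replicate 3 lay just below the lowest control and far above the other two. The change was -0.48 ± 0.16 (SE, adjusted p in limma 0.2137).

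ATP synthase makes ATP from the proton gradient, and mitochondria encode 2 subunits of its membrane part. FPKM of mt-Atp6 (7927 to 8607, plus strand) was 18.8, 20.1 and 19.6 in control and 14.4, 15.5 and 12.4 in GSK4112 libraries, from 147 to 236 fragments. The groups did not overlap. The change was -0.44 ± 0.10 (SE), with an adjusted p in limma of 0.0944 and of 0.0432 with the replicate block.

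The other subunit gene, mt-Atp8 (7766 to 7969, plus strand), had 1 fragment in control replicate 3 (FPKM 0.295), 1 in GSK4112 replicate 1 (0.290) and 0 in the other 4 libraries. A count of 0 allows up to 3 fragments, or an FPKM of 0.81 to 0.888, so no difference was detectable at this depth, which counts sampling error only. In mammals mt-Atp8 and mt-Atp6 are read from 1 shared mRNA, in which the genes overlap. The sequence of mt-Atp8 (chrM:7766-7969, plus strand) is shown because it was nearly uncounted although it lies beside mt-Atp6, and capitals mark the 43 bases that both genes share.
mt-Atp8: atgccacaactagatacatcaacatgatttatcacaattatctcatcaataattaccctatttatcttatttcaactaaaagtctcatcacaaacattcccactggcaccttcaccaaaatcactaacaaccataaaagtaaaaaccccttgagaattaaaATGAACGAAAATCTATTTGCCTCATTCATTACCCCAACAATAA
No annotated transcript outside the mitochondrial genome matched mt-Atp8. On chromosome 1 the copies of its neighbours, Gm28661 and Gm10925, flank a stretch that none of the transcripts searched covers, and that stretch was not examined here.

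The rRNAs form the small (mt-Rnr1, 12S) and large (mt-Rnr2, 16S) subunits of the mitochondrial ribosome and lie next to each other at the start of the genome. FPKM of mt-Rnr1 (70 to 1024, plus strand) was 349, 405 and 299 in control and 454, 512 and 505 in GSK4112 libraries, or 351 ± 53.4 and 490.4 ± 31.6 (SD, n = 3 each). All GSK4112 libraries were above all controls. The change was 0.49 ± 0.14 (SE), with an adjusted p in limma of 0.1492 and of 0.087 with the block. Quantile normalization alone brought it to 0.0495.

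FPKM of mt-Rnr2 (1094 to 2675, plus strand) was 504, 642 and 515 in control and 524, 587 and 534 in GSK4112 libraries. The groups overlapped, and the change was -0.01 ± 0.13 (SE, adjusted p in limma 0.9849), turning to 0.08 under quantile normalization. The ratio of mt-Rnr1 to mt-Rnr2 was 0.692, 0.632 and 0.580 in control and 0.867, 0.873 and 0.945 in GSK4112 libraries. Each GSK4112 library was above each control, and the exact 2-sided permutation test gave p = 0.1, the smallest that 3 against 3 samples allow.

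Per the protocol, mRNA was purified from total RNA. The summed FPKM of RNAs listed as lacking a poly(A) tail was higher in every GSK4112 library than in any control, as was mt-Rnr1. So was that of RNAs listed as staying in the nucleus. Of 22 RNAs without a poly(A) tail 10 were measured, 3 were tested and none was called (1 higher at an unadjusted p under 0.05 in limma). Their summed FPKM was 48.0 to 81.3 in control and 99.4 to 107 in GSK4112 libraries. Most of that was Hist1h1c, a linker histone gene, at 56.0 ± 15.0 and 92.8 ± 3.94 (SD, n = 3 each), so the sum mainly follows this gene. The next in level was Rn7sk, at 4.27 ± 1.56 and 5.12 ± 2.25 with overlapping groups. Rpph1, Rnu12, Scarna2 and Scarna13, each with a mean under 1, had lower means in GSK4112 libraries. Hist1h4h (mean FPKM 3.11 in control and 4.17 in GSK4112 libraries) and the scarcer Terc, Hist1h1e and Hist1h2ac had higher means, with overlapping groups. All 3 genes tested had estimates above control. Of 5 nuclear-retained long RNAs 4 were tested and none was called (1 higher at an unadjusted p under 0.05 in limma), but Neat1 was called higher with the block and in limma-voom. Their sum was 188 to 331 and 340 to 452. Most of it was Malat1, at 214 ± 64.6 and 299 ± 52.1 with overlapping groups, and the next was Xist, at 30.5 ± 5.85 and 41.8 ± 8.59, which overlapped too. The part of these in the difference of mt-Rnr1 was not tested.

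The tRNA gene with a row, mt-Tp, carries proline and lies on the minus strand (chrM:15356-15422). Its sequence shows how short the stretch is from which its FPKM was taken.
mt-Tp: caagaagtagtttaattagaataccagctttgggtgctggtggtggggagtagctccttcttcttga
FPKM was 856, 1236 and 1173 in control and 1056, 1535 and 1406 in GSK4112 libraries. The groups overlapped, replicate 1 was the lowest in each group, and the change was 0.29 ± 0.21 (SE, adjusted p in limma 0.5252). Without strand, reads from the plus-strand precursor that crosses this stretch and reads from mt-Tp cannot be told apart.

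Summed by RNA class, the 13 mRNAs had an FPKM of 23922, 25977 and 27403 in control and 22427, 24576 and 23406 in GSK4112 libraries. The groups overlapped (difference between the group means of log2 values, called log2 ratio below, -0.13, exact 2-sided permutation p = 0.2). The largest term in every library was mt-Co1. Without it the sum of 12 was 13715, 14373 and 15588 in control and 11461, 11808 and 11477 in GSK4112 libraries. These groups did not overlap (14559 ± 950.4 and 11582 ± 196, SD, n = 3 each; log2 ratio -0.33, exact permutation p = 0.1, the smallest possible). This subset was chosen after its values were seen.

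Leaving out all 6 mRNAs with a match of at least 95% over 80% of their length, mt-Co1 among them, gave a like value. The other 5 add little to the sum, so this likeness was nearly fixed in advance and does not test for an effect of copies. The rule also keeps mt-Nd4, of whose 100-base windows 777 of 1279 occur in another transcript. The remaining 7 summed to 13588, 14238 and 15458 in control and 11374, 11718 and 11383 in GSK4112 libraries (log2 ratio -0.33, exact permutation p = 0.1). The 5 matched mRNAs other than mt-Co1 summed to 127, 135 and 129.8 and then 87.5, 89.8 and 94.0 (log2 ratio -0.53, exact permutation p = 0.1). In neither sum did the groups overlap. The summed rRNAs were at 853, 1047 and 813 in control and 978, 1099 and 1039 in GSK4112 libraries, which overlapped (log2 ratio 0.21, exact permutation p = 0.3). The plot of class sums shows the samples.

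**Figure D3:**
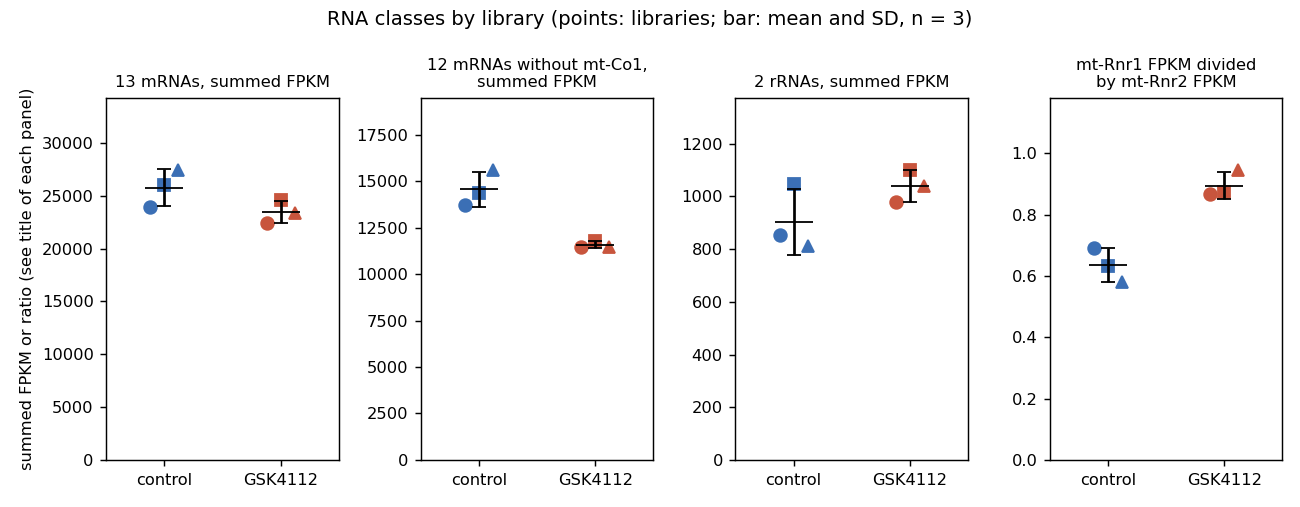
Summed FPKM of the 13 mRNAs, of 12 mRNAs without mt-Co1 and of the 2 rRNAs, and the ratio of mt-Rnr1 to mt-Rnr2 (no unit), for 3 control and 3 GSK4112 libraries; each point is a library, and lines and bars give the mean and SD (n = 3). The groups overlap in the panels of the 13 mRNAs and of the rRNAs and not in that of the 12 mRNAs (11461 to 11808 against 13715 to 15588) or of the ratio (0.867 to 0.945 against 0.580 to 0.692).

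By complex, the 7 complex I mRNAs summed to 10093, 11025 and 11772 in control and 8752, 9207 and 8947 in GSK4112 libraries, with no overlap (log2 ratio -0.29, exact permutation p = 0.1). The 3 complex IV mRNAs summed to 10306, 11711 and 11912 and then 11032, 12836 and 12004, which overlapped (log2 ratio 0.08, exact permutation p = 0.4). Nearly all of each complex IV sum was mt-Co1, so it follows that gene. In mt-Co2 and mt-Co3 every GSK4112 library was below every control.

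Ratios within a library do not depend on its scaling, and those given here were picked with their values in view. The ratio of mt-Co1 to mt-Cytb was 2.91, 3.60 and 3.19 in control and 4.17, 5.07 and 4.88 in GSK4112 libraries. That of mt-Co1 to mt-Nd1 was 2.87, 3.07 and 2.92 and then 3.74, 4.39 and 4.07. Both ratios were higher in every GSK4112 library than in any control (exact permutation p = 0.1 for each). The ratio of mt-Cytb to mt-Nd1, 2 genes without an annotated match of 95%, was 0.985, 0.851 and 0.915 and then 0.895, 0.865 and 0.833, which overlapped (p = 0.3 in the exact permutation test). Of 22 sums and ratios and 15 shares computed in this family, the lowest Benjamini-Hochberg adjusted p over the family was 0.176 in the exact permutation tests.

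Within the fragments of the mitochondrial genes, mt-Co1 held 48.0%, 49.7% and 48.6% in control and 53.5%, 56.1% and 55.5% in GSK4112 libraries. The share of mt-Nd1 was 10.4%, 10.04% and 10.3% in control and 8.87%, 7.93% and 8.44% in GSK4112 libraries. The share of mt-Cytb was 12.2%, 10.2% and 11.3% in control and 9.50%, 8.19% and 8.41% in GSK4112 libraries. The share of mt-Rnr1 was 1.01%, 1.07% and 0.759% in control and 1.37%, 1.39% and 1.45% in GSK4112 libraries. In none of these 4 genes did the groups overlap, and a share can move because another gene's does.

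**Figure D4:**
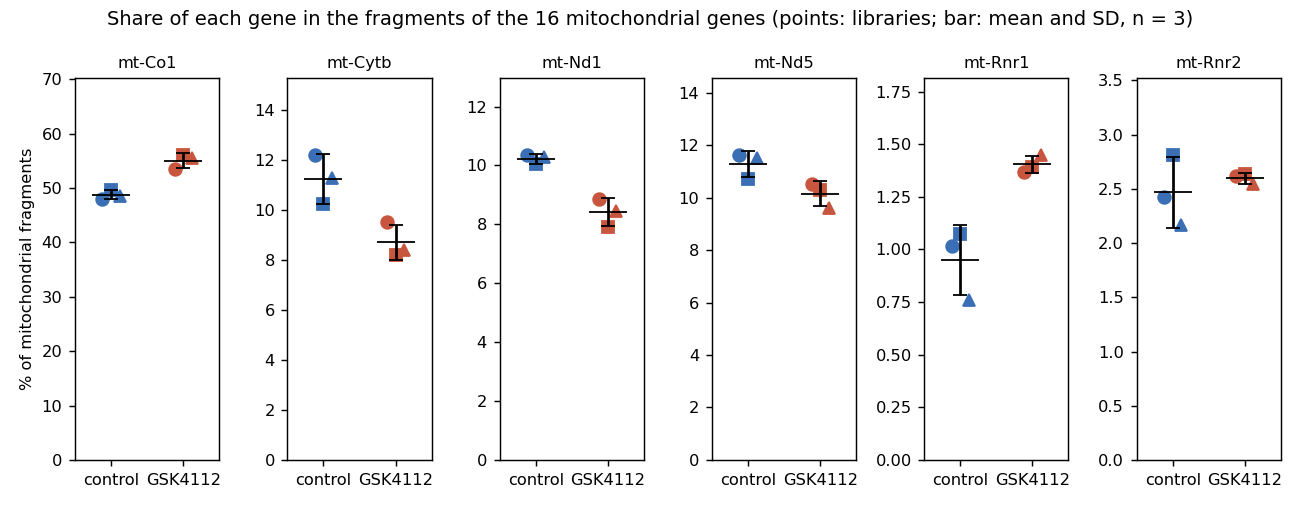
Share of 6 genes in the fragments of all 16 mitochondrial genes (percent, axes from 0), with 1 point per library and the mean and SD (n = 3). The share of mt-Co1 is higher in the GSK4112 libraries (53.5% to 56.1% against 48.0% to 49.7%), those of mt-Cytb, mt-Nd1 and mt-Nd5 are lower, that of mt-Rnr1 is higher and that of mt-Rnr2 overlaps.

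By strand, the ratio of mt-Nd6 to the median of the plus-strand mRNAs was 1.35, 1.09 and 1.06 in control and 1.13, 1.06 and 1.01 in GSK4112 libraries (log2 ratio -0.12, exact permutation p = 0.4). That median lay midway between mt-Nd4, the lowest of the abundant genes, and mt-Co2, the highest of the scarce ones. The size of this ratio therefore does not compare mt-Nd6 with a usual plus-strand mRNA. Against the median of the 6 plus-strand mRNAs without a long match, the nearly uncounted mt-Atp8 among them, the ratio was 0.561, 0.394 and 0.375 and then 0.398, 0.401 and 0.408 (log2 ratio -0.12, exact permutation p = 1.0). The groups overlapped in both, and control replicate 1 was the highest in each. Without it the log2 ratio to the median of all plus-strand mRNAs was -0.01. The minus-strand genes mt-Nd6 and mt-Tp had estimates of opposite sign. Along the plus strand the estimates went from 0.49 at mt-Rnr1 and -0.01 at mt-Rnr2 to -0.37 at mt-Nd1 and -0.21 at mt-Nd2, and from 0.09 at mt-Co1 to -0.55 at mt-Co2. They showed no steady order with distance from the start, ending at -0.46 at mt-Cytb.

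Of the 7 copies on chromosome 1, all tested, 2 fell, beside 0.624% of all genes tested. With the block 3 fell, beside 3.82%. Gm28661, the copy of mt-Co2, had an FPKM of 61.5, 60.6 and 52.1 in control and 36.7, 35.3 and 34.2 in GSK4112 libraries (log2 change -0.69 ± 0.09 SE, adjusted p in limma 0.0356). Gm28437, the copy of mt-Co3, had 28.2, 28.7 and 30.6 in control and 18.1, 20.1 and 18.0 in GSK4112 libraries (-0.61 ± 0.08, adjusted p in limma 0.0356). In both, every GSK4112 library was below every control, and their levels were near those of the mitochondrial genes they match. The plot of genes beside their copies shows the pairs.

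**Figure D5:**
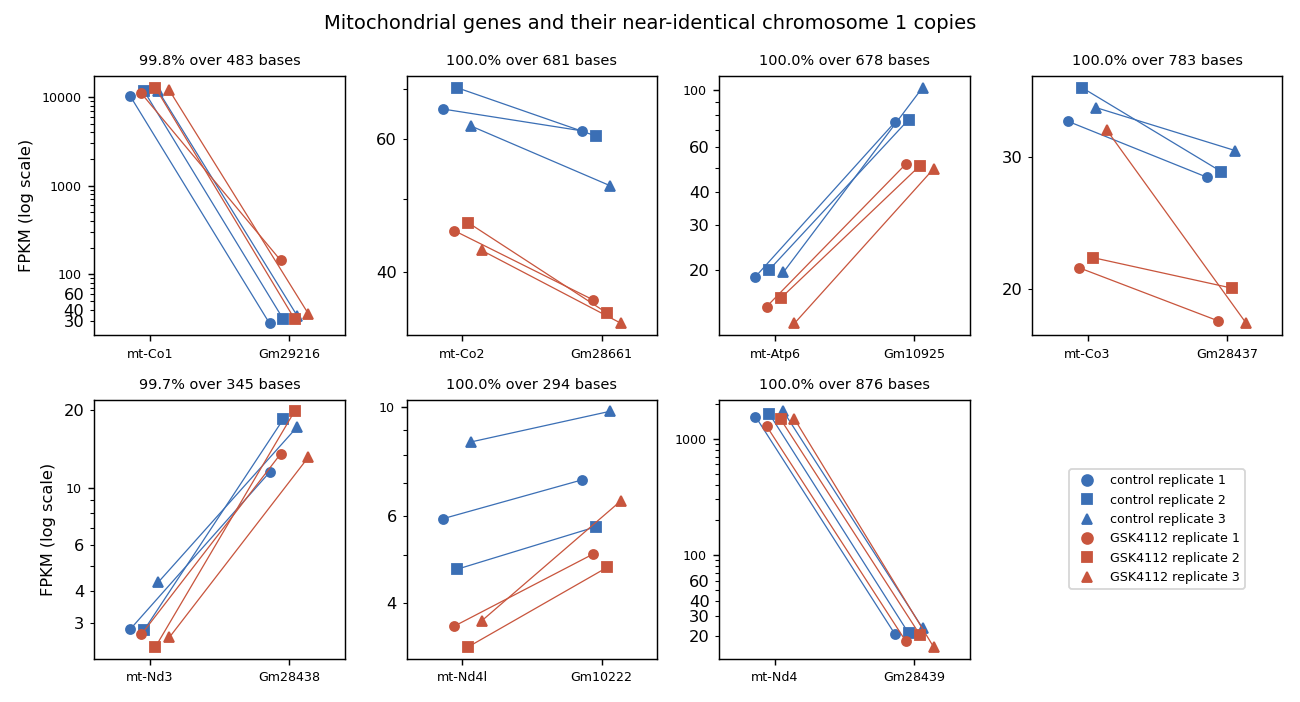
FPKM (log scale, its range set per panel) of 7 mitochondrial genes (left in each panel) and of their copies on chromosome 1 (right), with a line joining the 2 values of each of 6 libraries and the identity of the match above. The GSK4112 libraries lie below the controls on both sides for mt-Co2, mt-Atp6 and mt-Co3, and mt-Co1 and mt-Nd4 lie far above their copies.

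Gm10925, the copy of mt-Atp6, was at 74.8, 76.7 and 102 in control and 51.6, 50.8 and 49.5 in GSK4112 libraries, which is higher than mt-Atp6 in every library. Its change was -0.72 ± 0.13 (SE), with an adjusted p in limma of 0.0641 and of 0.0258 with the block. Gm28438, the copy of mt-Nd3, also stood above its match, at 11.5, 18.5 and 17.2 and then 13.5, 19.8 and 13.2, and its groups overlapped (adjusted p in limma 0.9787). Gm10222, the copy of mt-Nd4l, was at 7.12, 5.71 and 9.81 and then 5.03, 4.72 and 6.46 (change -0.40 ± 0.19 SE, adjusted p in limma 0.36). Its groups overlapped as well.

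Gm28439 was at 20.9, 21.2 and 23.5 in control and 18.0, 20.6 and 16.1 in GSK4112 libraries (adjusted p in limma 0.3013). It matches the first 876 bases of mt-Nd4 without a difference, while mt-Nd4, which has 502 windows of its own, was at 1279.9 or more in every library. Gm29216, which matches the end of mt-Co1, was at 28.1, 31.1 and 34.0 and then 144, 31.4 and 35.8, so that GSK4112 replicate 1 stood far above the other 5 libraries. In mt-Co1 that library was at 10965, within the range of the controls. Gm13340 was at 4.06, 7.20 and 5.84 and then 5.02, 6.64 and 7.52 (adjusted p in limma 0.7484).

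Adding the fragments of each copy to its member gave a value that does not depend on how counted fragments were divided between them. If shared fragments were dropped or counted to both, the sum would still depend on that, and their handling is not given. This alternative was chosen after seeing the data. The change was then -0.62 for mt-Co2 (adjusted p in limma 0.0401) and -0.67 for mt-Atp6 (0.0593). It was -0.54 for mt-Co3 (adjusted p in limma 0.0789), -0.56 for mt-Nd4l (0.2276) and -0.07 for mt-Nd3 (0.8945). The call on mt-Co2 was kept in this sum, which cannot show what dropped fragments would add. The estimate of mt-Atp6 moved away from 0 and that of mt-Nd3 towards it.

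The nuclear genes that serve the mitochondrial genome or share its complexes were taken as 8 lists of 165 genes, of which 159 were tested. None was called in limma, where 0.41% of all tested genes rose and 0.624% fell, nor with the block (3.07% and 3.82%) or in limma-voom (0.616% and 0.789%). At an unadjusted p under 0.05, 6 were higher and 7 lower, beside 10.7% and 6.21% of all tested genes. Of the 159, 72 lay below control, with a median log2 change of 0.02, beside 0.05 for all genes tested.

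For transcription and replication of mitochondrial DNA 6 of 20 genes lay below control (median log2 change 0.07). Polrmt, the mitochondrial RNA polymerase, was at an FPKM of 9.34 ± 1.84 in control and 8.15 ± 0.468 in GSK4112 libraries (SD, n = 3 here and below), and Tfam, which packages the genome and starts transcription, at 10.1 ± 0.425 and 9.57 ± 0.599. The most abundant were Lonp1, the matrix protease that degrades TFAM, at 104 ± 22.2 and 108 ± 6.98, and Atad3a at 20.1 ± 2.98 and 20.2 ± 0.84. For RNA processing and decay 12 of 22 lay below control (median -0.01). There Hsd17b10, a subunit of the RNase P that cuts the 5′ ends of tRNAs, was at 44.6 ± 4.25 and 43.4 ± 6.43, and Grsf1, of the RNA granules, at 33.5 ± 3.09 and 35.1 ± 2.20.

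For modification of rRNA and tRNA 10 of 24 lay below control (median log2 change 0.05). Nsun2, an RNA methyltransferase, was at 19.96 ± 0.37 and 15.96 ± 1.18 (adjusted p in limma 0.1327) and Yrdc at 13.3 ± 1.23 and 11.9 ± 1.29. For aminoacyl-tRNA synthetases, which load tRNAs with amino acids, 10 of 22 lay below control (median 0.04). The most abundant, Gars (52.4 ± 6.97 and 55.7 ± 6.46) and Kars (31.4 ± 2.58 and 27.5 ± 2.52), serve both the cytosol and the mitochondria.

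Of the nuclear partners of the mitochondrial subunits, 14 of 35 complex I genes lay below control (median log2 change 0.03). The 2 most abundant were Ndufa6, at 160 ± 15.6 and 213 ± 33.4, and Ndufb9, at 112 ± 9.41 and 133 ± 9.34. Ndufs4 (30.3 ± 1.33 and 24.0 ± 1.22) and Ndufs5 (61.4 ± 3.66 and 49.3 ± 3.40) went the other way. At an unadjusted p under 0.05 in limma, 2 complex I genes were higher and 2 lower. For complex III 5 of 9 lay below control (median -0.01), with Uqcr10 at 116 ± 15.5 and 107 ± 13.5 and Uqcrfs1 at 112 ± 15.3 and 109 ± 10.9. For complex IV 5 of 11 did (median 0.01), with Cox6a1 at 415 ± 43.7 and 480.2 ± 38.4 and Cox8a at 228 ± 25.3 and 242 ± 19.3. For ATP synthase 10 of 16 did (median -0.04), with Atp5b at 256 ± 20.9 and 236 ± 13.5 and Atp5a1 at 223 ± 11.1 and 215 ± 11.5. The 7 mitochondrial complex I mRNAs all lay below control, beside these 14 of 35 nuclear genes, and the difference between the lists was not tested.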

How the data were processed

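The deposited table gives FPKM (fragments scaled by gene length and library size) per gene and library. Per the submitters' processing notes the build was GRCm38; aligner, counter, annotation release, strand setting and the handling of multiply mapped fragments were not given in the sources used here. Of its 27151 gene IDs 27098 were found in GENCODE M21, which supplied symbols, lengths and coordinates. Dividing FPKM by its step per gene gave whole fragments (within 0.01) for 92.8% to 93.1% of values below 500 fragments, and for all 16 mitochondrial genes (within 0.05). Genes whose mean FPKM reached 1 were tested on log2(FPKM + 1), which understates the change of low genes, with limma 3.58.1 (R 4.3.3) with a variance trend, 2-sided, without a block, after a test on simulated data. Sums and ratios used exact permutation tests, which cannot go below p = 0.1.

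Mitochondrial transcripts were searched with BLAST 2.17.0 against all M21 transcripts, and the rule for copies took those with 95% identity over at least 100 bases and a mean FPKM of at least 1; Gm11410, below that identity and without a row, is shown for contrast. Same-numbered libraries deviated together (correlations 0.665, 0.326 and 0.213 over genes). They were taken as pairs from the data alone, as no label states it. Control replicate 3 correlated with GSK4112 replicate 2 at 0.53, and control replicate 2 with GSK4112 replicate 3 at 0.357. Both values lie above the same-numbered ones of replicates 2 and 3, so the data set only replicate 1 apart as a pair. Alternatives changed pseudocount, filter, scaling, variance model, block and libraries. Members, lists, ratios and tests were chosen with earlier results of these data known. Every mt- gene is named, and from each list called genes and the 2 most abundant, except marker lists, given as sums and called genes. Polrmt, Tfam, Neat1, Inhba, Serpine2, Ndufs4 and Ndufs5 were added outside the rule. So were the measured RNAs without a poly(A) tail other than Hist1h1c and Rn7sk. No dose is printed, as the labels do not give a usable concentration.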

Additional observations from a re-analysis of the deposited data

How the results depend on the processing

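Over 24 limma fits, including the one reported, 14 of 15 mitochondrial genes kept their direction (for mt-Co1, quantile normalization fixes 0 by rank). The exception was mt-Rnr2, with a log2 change of 0.0818 under quantile normalization with or without the replicate block and of -0.0698 to 0.1039 with single libraries left out, where the cause was not tested. The reported fit called 126 genes. The count was 26 without a filter, 830 with sample weights, 839 with the replicate block, 856 without both replicate 1 libraries, 1139 without them and with the block, 769 with quantile normalization and the block (added after seeing the data), and 0 to 153 with single libraries left out. It was 8 without control replicate 2, and 0 without control replicate 3, GSK4112 replicate 2 or GSK4112 replicate 3 (1843, 1224 and 1318 genes at an unadjusted p under 0.05). Median-of-ratios scaling called 44 higher and 117 lower, beside 50 and 76.

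Of the mitochondrial genes 0 fell without a filter, 0 without a trend and 0 with any single library left out (at an unadjusted p under 0.05, 4, 8 and 3 to 6 were lower), 2 fell with sample weights, and 3 with the replicate block, with the block and both replicate 1 libraries out, and with quantile normalization and the block. The block changed the call of mt-Atp6 and mt-Nd4l and of no other mitochondrial gene. Quantile normalization with and without the block called 1 higher, mt-Rnr1 (adjusted p in limma 0.0237 and 0.0495). The reported call on mt-Co2 held in 16 of 24 fits, with a log2 change from -0.62 to -0.51 and an adjusted p in limma from 0.0147 to 0.2284. The summed mRNAs moved from -0.13 to -0.33 without the genes that match another transcript, mainly mt-Co1. From 14 to 42 fragments lay behind each value of mt-Nd3 and mt-Nd4l, which limits what they can show.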
